A study of Mus musculus with 10 samples.

Results

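The 10 genes examined here are markers of intercalated cells, the acid-base transporting cells of the kidney collecting duct, read in a line of principal cells, which take up sodium and water. They were chosen by symbol (Foxi1, Atp6v1b1, Atp6v1g3, Atp6v0d2, Slc4a1, Slc4a9, Slc26a4, Car2, Kit and Hmx2), and all 10 were found among the 55414 genes of the table. The question is how far each clone of the line holds to a principal cell pattern, and whether loss of Camk2d, the gene of a calcium/calmodulin-dependent protein kinase, goes with a shift toward intercalated cell genes. mpkCCD cells are an immortalized mouse cortical collecting duct line, and every sample had been kept for 7 days with dDAVP at 0.1 nM, an agonist of the vasopressin V2 receptor. The 5 Camk2d-intact samples stand for 3 lines, namely the parent with 1 sample and intact clones 1 and 2 with 2 samples each. These clones had gone through the CRISPR-Cas9 transfection but kept the kinase. The 5 Camk2d KO samples are 5 single-cell clones, KO 1 and KO 2 made with a guide to exon 8 and KO 3, KO 4 and KO 5 with a guide to exon 9. Each KO clone has 1 sample, and nothing states whether the paired samples of an intact clone were separate cultures, so the spread within a clone may be technical. There was no sample without dDAVP and none of sorted intercalated cells.

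The collecting duct epithelium is a mosaic. Principal cells carry the water channel AQP2 and the epithelial sodium channel. Intercalated cells carry a vacuolar proton pump at the plasma membrane, the cytosolic carbonic anhydrase II (Car2) that makes protons for the pump and bicarbonate, and an anion exchanger that moves the bicarbonate out. The forkhead factor FOXI1 is needed for the intercalated cell program, and Notch signaling between neighboring cells keeps principal cells from taking it up. Among the pump genes, Atp6v1b1, Atp6v1g3 and Atp6v0d2 encode the subunit forms typical of intercalated cells, each with a paralog that nearly all cells use. Slc4a1 encodes the AE1 exchanger of type A cells, Slc26a4 encodes pendrin of the other types, and Slc4a9 encodes AE4. Kit encodes a receptor tyrosine kinase and Hmx2 a homeobox factor.

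The values are TPM, which scale reads by transcript length and sum to the same total in every sample. They carry no sequencing depth, so the counting error of a low value is unknown, and a value of 0 is given as listed at 0. Between 19344 and 20052 genes were above 0 per sample. Camk2d, the check of the labels, was between 122.68 and 141.28 TPM in the intact samples and between 19.76 and 29.76 in the KO samples (log2 difference -2.39, SE 0.09, limma adjusted p = 1.2e-06). It was the only gene of the 20000 tested with an adjusted p under 0.05 between KO and intact in this limma fit. An unadjusted p under 0.05 was found for 1398 genes. The authors' own comparison with edgeR on expected counts reported more changed transcripts than this fit on TPM.

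Promoter sequences are shown for 4 genes, with a search for a forkhead core. Whether FOXI1 acts on any of them was not tested. They are the 250 bases before the annotated start, from RefSeq on GRCm38.p6, for the regulator Foxi1 (chr11:34208090-34208339, minus strand), for 2 pump subunit genes on opposite sides of the detection range, Atp6v1b1 (chr6:83742767-83743016, plus strand) and Atp6v1g3 (chr1:138273488-138273737, plus strand), and for Rhcg (chr7:79617658-79617907, minus strand), an ammonia transporter gene described further on. Capitals mark the forkhead core TGTTTAC, searched on both strands.
Foxi1: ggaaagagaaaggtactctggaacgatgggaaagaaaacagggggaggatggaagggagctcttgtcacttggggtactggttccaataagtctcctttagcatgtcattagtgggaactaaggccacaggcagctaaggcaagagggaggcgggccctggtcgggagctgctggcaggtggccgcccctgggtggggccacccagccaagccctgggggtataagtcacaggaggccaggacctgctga
Atp6v1b1: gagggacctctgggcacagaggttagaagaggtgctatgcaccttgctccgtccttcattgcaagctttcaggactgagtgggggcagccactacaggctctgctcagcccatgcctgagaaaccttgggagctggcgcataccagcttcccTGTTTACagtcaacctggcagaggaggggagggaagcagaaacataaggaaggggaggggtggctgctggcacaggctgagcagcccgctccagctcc
Atp6v1g3: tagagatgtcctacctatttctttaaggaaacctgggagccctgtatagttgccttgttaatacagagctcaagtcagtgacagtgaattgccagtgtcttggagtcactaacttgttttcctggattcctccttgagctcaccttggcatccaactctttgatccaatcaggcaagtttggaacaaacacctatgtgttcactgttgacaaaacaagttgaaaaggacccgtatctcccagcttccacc
Rhcg: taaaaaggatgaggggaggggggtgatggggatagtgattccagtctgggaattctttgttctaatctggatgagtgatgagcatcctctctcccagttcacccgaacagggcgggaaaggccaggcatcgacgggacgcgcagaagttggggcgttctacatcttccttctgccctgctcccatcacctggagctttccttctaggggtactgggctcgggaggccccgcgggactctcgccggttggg
Of the 10 genes, 6 had at least 1 such window in the table (Foxi1, Atp6v1b1, Atp6v1g3, Slc26a4, Kit and Hmx2). The core was present once, starting at position -98 of Atp6v1b1, and these letters were not in the windows of the other 5, nor in that of Rhcg. Of all 32851 windows of this length, 1040 (3.17%) held it.

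The markers fell into 3 classes by level. Car2 and Atp6v1b1 were at 1 TPM or more in all 10 samples, Hmx2 lay on both sides of 1 TPM, and the other 7 were below 1 TPM in every sample. Among protein-coding genes 47.1%, and among all the genes listed 73.5%, were below 1 TPM in every sample, so a low value is common in this line. All 10 genes had every 50-base window of their annotated transcripts to themselves, so reads shared with a paralog do not limit their levels.

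**Figure D1:**
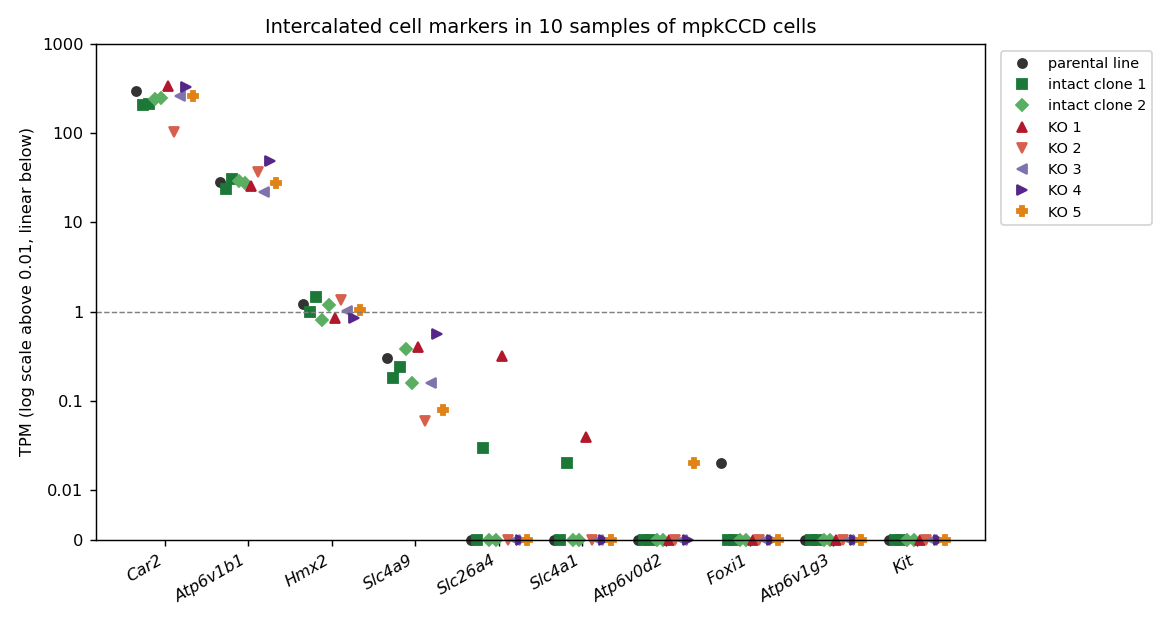
TPM of the 10 intercalated cell markers (log scale above 0.01, linear below) in each of the 10 samples, colored by cell line, with the dashed line at 1 TPM. Car2 and Atp6v1b1 sit above the line in every sample, Hmx2 straddles it, and the other 7 genes lie below it or are listed at 0.

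Foxi1 (ENSMUSG00000047861), the regulator, was listed at 0 in 9 samples and at 0.02 TPM in the parental line. Its relatives Foxi2 and Foxi3 were listed at 0 in all samples. Kit (ENSMUSG00000005672) and Atp6v1g3 (ENSMUSG00000026394) were listed at 0 in all 10 samples, as were 28.2% of protein-coding genes. Atp6v0d2 (ENSMUSG00000028238) was at 0.02 TPM in KO 5 and listed at 0 elsewhere. The low or absent values thus covered the regulator, the receptor and 2 of the 3 pump subunits.

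The exchangers were also low. Slc4a1 (ENSMUSG00000006574) was at 0.02 TPM in the second sample of intact clone 1, at 0.04 in KO 1 and listed at 0 in the other 8 samples. Slc26a4 (ENSMUSG00000020651) was at 0.03 TPM in the same sample of intact clone 1 and at 0.32 in KO 1, and listed at 0 elsewhere. For both exchangers the same 2 samples were above 0. Slc4a9 (ENSMUSG00000024485) was above 0 in every sample, at 0.30 TPM in the parental line, 0.18 and 0.24 in intact clone 1, 0.38 and 0.16 in intact clone 2, and 0.40, 0.06, 0.16, 0.56 and 0.08 in KO 1 to KO 5. The intact values lay inside the range of the KO values (log2 difference -0.01, SE 0.11, limma adjusted p = 0.991). The 2 samples of intact clone 2 were the highest and the lowest of the intact group, so the spread within a clone was as wide as that among the intact lines. Of the 70 values of the 7 low genes 16 were above 0, and of the 60 without Slc4a9 only 6. Summed over the 7 genes, the level ran from 0.06 TPM in KO 2 to 0.76 TPM in KO 1, with 0.16 to 0.38 TPM in the intact samples. KO 1 was highest through Slc26a4 and Slc4a9.

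Only Car2, Atp6v1b1, Hmx2 and Slc4a9 were among the 20000 genes with the highest mean TPM, which were the genes tested. None of the 4 was called between KO and intact at an adjusted p under 0.05, against 0.005% of all genes tested, and 0 had an unadjusted p under 0.05. None of the 4 separated the KO from the intact samples without overlap, which 1.64% of genes tested did. Their median log2 difference was -0.01, and that of all genes tested was 0.02. A test for any difference among the 8 cell lines called 1 of the 4, Car2, and 3.6% of all genes tested. That test takes its spread from the paired samples of the 2 intact clones (2 residual degrees of freedom) and assumes that the 6 lines with a single sample vary alike. With any 1 of those 4 samples left out it called no gene at all, while 4577 to 4651 genes had an unadjusted p under 0.05.

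Car2 (ENSMUSG00000027562, chr3:14886269-14900770 on GRCm38.p6) was the most abundant marker, and by mean level it ranked 790 among all genes. It is also the least restricted of the 10, since principal cells are known to contain some carbonic anhydrase II. Its level was 297.72 TPM in the parental line, 208.05 and 211.23 in intact clone 1, 243.81 and 248.29 in intact clone 2, and 335.80, 104.27, 260.42, 331.53 and 258.00 in KO 1 to KO 5. KO 1 and KO 4 were above every intact sample and KO 2 was below every intact sample, so the KO group reached past the intact group at both ends. The means were 242 ± 36.2 TPM for intact and 258 ± 93.7 for KO (SD, n = 5 each), and the log2 difference was -0.0038 (SE 0.28, limma adjusted p = 0.999). Without KO 2 it was 0.29, and Car2 was still not called. In bulk RNA a lower share of cells expressing a gene and less of its RNA per cell cannot be told apart.

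The cell lines were called different in Car2 (limma F test, adjusted p = 0.0093), with a range of 3.22 times over the samples. As 6 lines have 1 sample each, a difference between lines cannot be told apart from one between samples. In ascending order of mean level the lines were KO 2 at 104 TPM, intact clone 1, intact clone 2, KO 5, KO 3, the parental line, KO 4 and KO 1 at 336 TPM. Of the 7 steps in that order 5 were larger than the largest difference between paired samples of an intact clone, 0.03 on the log2 scale. The steps from KO 5 to KO 3 and from KO 4 to KO 1 were not. The spread of the pairs may be technical, so this count does not weigh lines against separate cultures of the same line. The step from KO 2 to intact clone 1 was 1.00 on the log2 scale, while the 3 intact lines spanned 0.50. Over the other processing choices the adjusted p stayed between 0.0040 and 0.0268, and without 1 of the intact clone samples it was between 0.130 and 0.135. Without KO 2 it was 0.0400, and the samples then ran from 208.05 to 335.80 TPM.

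**Figure D2:**
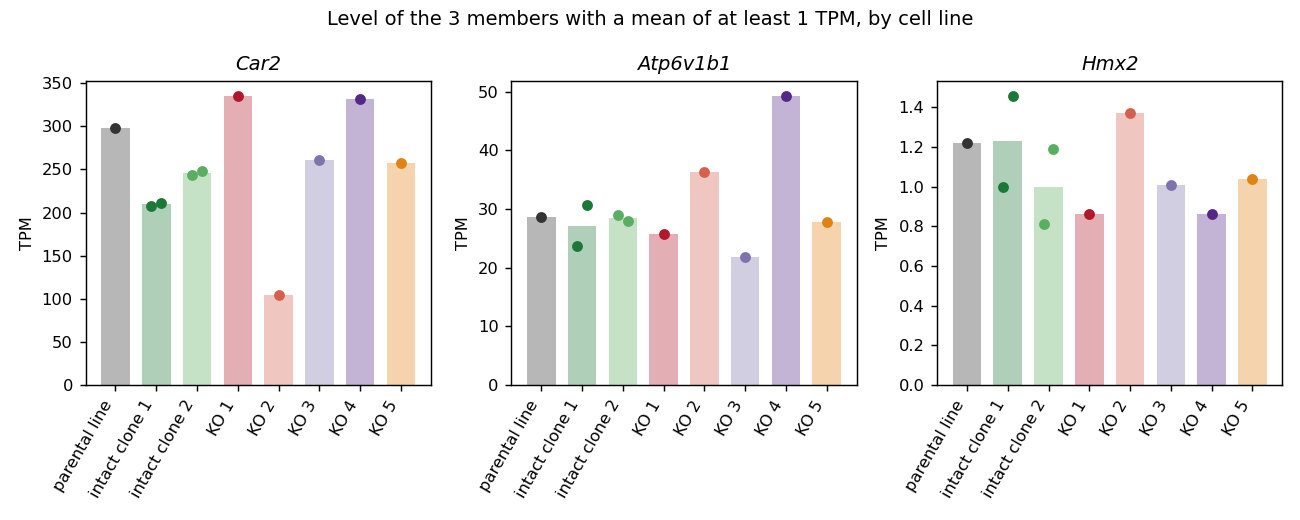
TPM of Car2, Atp6v1b1 and Hmx2 in the 8 cell lines (linear axes from 0), with a point for each sample and a bar for the mean of the line. Car2 is lowest in KO 2 with paired intact samples nearly on top of each other, Atp6v1b1 is highest in KO 4, and no step between neighboring lines in the order of Hmx2 is larger than the difference between paired samples.

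Atp6v1b1 (ENSMUSG00000006269, chr6:83743017-83758855), the B1 subunit of the pump's catalytic part, ranked 6286 by mean level. Its level was 28.70 TPM in the parental line, 23.62 and 30.73 in intact clone 1, 29.05 and 27.91 in intact clone 2, and 25.75, 36.32, 21.82, 49.33 and 27.84 in KO 1 to KO 5. KO 4 and KO 2 were above every intact sample and KO 3 was below. The means were 28.0 ± 2.66 TPM for intact and 32.2 ± 10.9 for KO (SD, n = 5 each), and the log2 difference of 0.14 (SE 0.19, limma adjusted p = 0.884) became -0.02 without KO 4. The lines were not called different (F test, adjusted p = 0.237, and 0.138 to 0.302 over the other processing choices). In the order of lines from KO 3 at 21.8 TPM to KO 4 at 49.3 TPM, only the last step, from KO 2 to KO 4 (0.43 on the log2 scale), was larger than the 0.37 between the paired samples of intact clone 1. KO 2 thus had the lowest Car2 of the 8 lines and the second highest Atp6v1b1.

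Hmx2 (ENSMUSG00000050100, chr7:131548757-131558014) was close to 1 TPM in all lines. Its level was 1.22 TPM in the parental line, 1.00 and 1.46 in intact clone 1, 0.81 and 1.19 in intact clone 2, and 0.86, 1.37, 1.01, 0.86 and 1.04 in KO 1 to KO 5. The groups overlapped almost fully, with 1.14 ± 0.245 TPM for intact and 1.03 ± 0.209 for KO (SD, n = 5 each; log2 difference -0.07, SE 0.11, limma adjusted p = 0.902). None of the 7 steps between lines was larger than the difference between paired samples (F test, adjusted p = 0.810). Hmx2 overlaps Fgfr2 on the opposite strand, a receptor gene at 195.7 to 346.3 TPM here, and the library kit does not mark strand. None of its 50-base transcript windows occurs in another annotated transcript. Its relative Hmx3 was listed at 0 in every sample.

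Most of the pump was expressed throughout, with Atp6v1g3 and Atp6v0d2 among the few subunit genes that were not. Of 25 subunit genes, 21 were at 1 TPM or more in every sample, and the 4 below 1 TPM in every sample were Atp6v1g3, Atp6v0d2, Atp6v1c2 and Atp6v1e2. The summed level of the list was 3251 to 3371 TPM in intact and 3096 to 3297 TPM in KO samples, and it was led by Atp6v1f (537.13 to 613.28 TPM), Atp6v0e (439.88 to 514.64) and Atp6v0b (399.05 to 505.69). None of the 22 tested was called between KO and intact (0.005% of all genes tested were), and 1, Atp6v0a4, was called among lines (3.6% of all genes tested were). Paralogs of these low genes were expressed: Atp6v0d1 was at 114.10 to 156.36 TPM beside Atp6v0d2, and Atp6v1g1 at 158.25 to 178.12 TPM and Atp6v1g2 at 3.87 to 7.23 TPM beside Atp6v1g3. Atp6v1b1 was nearer to its paralog. It reached 18.9% to 23.5% of the level of its paralog Atp6v1b2 (93.08 to 136.22 TPM) in the intact samples, and from 16.9% in KO 3 to 36.2% in KO 4 among the KO clones.

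Atp6v0a4 (ENSMUSG00000038600, chr6:38048483-38124586), the membrane subunit form that intercalated cells pair with Atp6v1b1, was present as well. Its level was 23.61 TPM in the parental line, 20.66 and 19.31 in intact clone 1, 29.00 and 26.71 in intact clone 2, and 38.02, 11.12, 32.33, 58.74 and 19.64 in KO 1 to KO 5. As with Car2, KO 2 was lowest, while KO 1, KO 3 and KO 4 were above all intact samples. The lines were called different at an adjusted p of 0.0436 in the F test, which was 0.0558 without the intensity trend, 0.0682 without KO 2 and 0.0530 without KO 4. The KO means were not called different (log2 difference 0.22, SE 0.36, limma adjusted p = 0.912). Relative to its paralog Atp6v0a1 it ran from 24.3% in KO 2 to 108% in KO 4, with 41.4% to 60.5% in the intact samples. It overlaps Tmem213 on the opposite strand, and 95.5% of its 50-base windows were its own.

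A wider list of 26 intercalated cell genes also held both low and well expressed genes. In it 11 genes were below 1 TPM in every sample, 5 of them listed at 0 throughout, 12 were at 1 TPM or more in every sample, and Aqp6, Rhbg and Rhcg lay on both sides. None of the 18 tested was called between KO and intact, and 6 (Rhcg, Spink8, Tmem213, Bsnd, Atp6v0a4 and Fxyd2) were called among lines, again beside 3.6% of all genes tested. The 5 highest were Fxyd2, Tmem213, Spink8, Rhcg and Kcnq1, a potassium channel gene at 36.25 to 53.62 TPM. Aqp6, the intracellular aquaporin of type A cells, ran from 0.64 TPM in KO 1 to 7.11 in KO 4.

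Rhcg (ENSMUSG00000030549, chr7:79593363-79617657), which encodes an ammonia transporter known from both intercalated and principal cells, was nearly on or off by line. Its level was 88.78 TPM in the parental line, 0.69 and 0.67 in intact clone 1, 0.33 and 0.27 in intact clone 2, and 158.52, 80.20, 98.40, 101.45 and 1.02 in KO 1 to KO 5. The parental line and 4 KO clones were at 80.20 TPM or more, and both intact clones and KO 5 were at 1.02 TPM or less. The step from KO 5 to KO 2 was 5.33 on the log2 scale, against at most 0.07 between paired samples, and the F test gave an adjusted p of 0.0069 (0.0010 to 0.0144 over the other processing choices, and up to 0.103 without an intact clone sample). Lines on each side of that gap included intact and KO ones, and the log2 difference between KO and intact of 3.85 had an SE of 1.45 and a limma adjusted p of 0.651. That difference was 5.04 without the parental line, 5.00 without KO 5 and 3.06 with 1 value per line, and it was called in none of these fits. Of 21876 protein-coding genes, 8 (0.0366%) reached 10 TPM in a sample and ranged 100-fold or more, a count made after the values of Rhcg were seen. Of the 5 lines with high Rhcg, Foxi1 was at 0.02 TPM in the parental line and listed at 0 in the 4 KO clones, as it was in the 3 lines with low Rhcg. Whether FOXI1 has a part in the split of Rhcg was not tested.

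**Figure D3:**
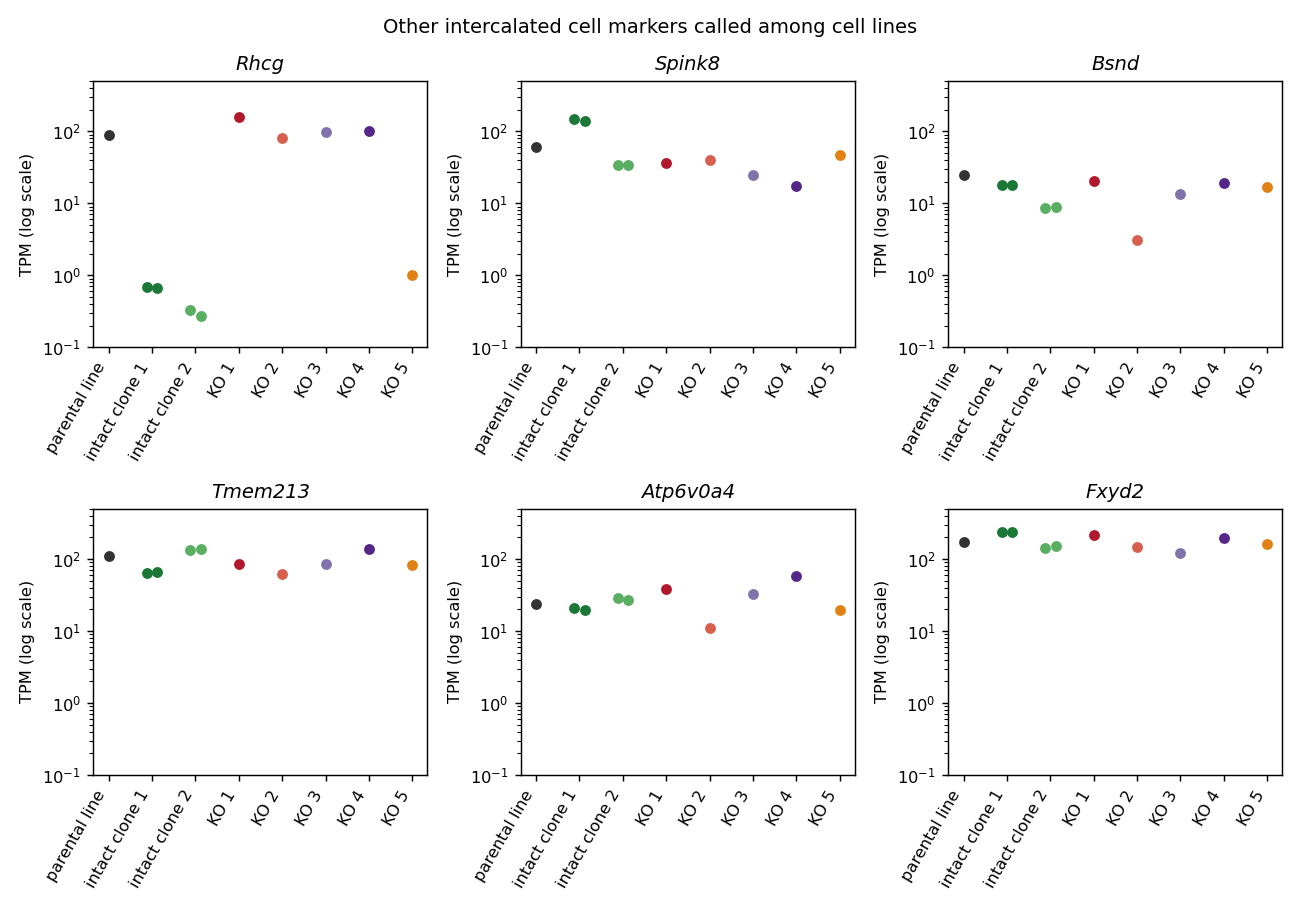
TPM (log scale) of the 6 genes of the wider intercalated list called among lines, with a point for each sample. Rhcg splits the lines into 5 at 80.20 TPM or more and 3 at 1.02 TPM or less, whereas the other 5 genes range from 1.95 times (Fxyd2) to 8.57 times (Spink8) between lowest and highest sample.

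The other 5 called genes each had their own order of lines. Spink8, a serine peptidase inhibitor gene, was highest in intact clone 1 (148.00 and 140.76 TPM) and lowest in KO 4 (17.27 TPM), with an adjusted p of 0.0073 in the F test. Bsnd, which encodes barttin, a subunit of chloride channels, was at 3.08 TPM in KO 2, at 8.63 and 8.89 in intact clone 2 and between 13.28 and 25.01 in the rest (adjusted p = 0.0167 by limma). Tmem213 was at 62.40 TPM in KO 2, at 63.95 and 65.21 in intact clone 1, and at 135.54 to 138.48 in intact clone 2 and KO 4 (adjusted p = 0.0108 by limma). Fxyd2, which encodes a regulator of the sodium pump, ran from 121.52 TPM in KO 3 to 237.20 in intact clone 1 (adjusted p = 0.0456 by limma), and under median-ratio scaling its p was 0.0522. KO 2 was the lowest sample for Bsnd, Tmem213, Atp6v0a4, Car2 and Slc4a9, but neither for Spink8, Fxyd2 nor Rhcg. For Atp6v1b1 and Hmx2 it was second highest. It was also lowest for Rhbg and for the transcription factor genes Pax8, Elf3 and Ehf, so its low values were not confined to intercalated cell genes.

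Principal cell genes were read beside these markers. Of 16 such genes, 9 were at 1 TPM or more in every sample and 5 (Scnn1b, Kcnj1, Elf5, Kcne1 and Pappa) were below 1 TPM in every sample. Scnn1b encodes a subunit of the epithelial sodium channel and Kcnj1 the ROMK potassium channel, so 2 defining markers of principal cells were nearly absent from the line. Aqp2 was far above any intercalated marker, at 3773.21 to 5502.48 TPM in intact and 1281.18 to 3788.60 TPM in KO samples (log2 difference -0.89, SE 0.27, limma adjusted p = 0.565). Npnt (559.82 to 687.50 TPM), Gata3 (240.44 to 280.24), Scnn1a (141.20 to 260.38) and Scnn1g (13.43 to 24.60) were present in every line. Aqp3, a basolateral water channel, was at 1.10 to 3.34 TPM, and Nr3c2, the mineralocorticoid receptor, ran from 0.89 to 1.71 TPM. None of the 14 tested was called between KO and intact, beside 0.005% of all genes tested, and 4 were called among lines, beside 3.6%: Hsd11b2 (adjusted p = 0.0092 by limma), Aqp4 (0.0401), Avpr2 (0.0457) and Fxyd4 (0.0475). KO 2 stood apart in 3 of these, with 194.21 TPM of Fxyd4 against 588.19 or more elsewhere, 114.19 TPM of Avpr2, the vasopressin receptor, against 192.48 or more, and 114.93 TPM of Hsd11b2, the enzyme that inactivates glucocorticoids, against 43.09 or less. Without KO 2 the adjusted p was 0.284 for Fxyd4 and 0.172 for Avpr2. The clone with the lowest Car2 was thus also lowest for these 2 principal cell genes. Aqp4 was highest in intact clone 1, at 7.00 and 8.54 TPM, and lowest in KO 3 and KO 4 at 0.07 TPM.

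Set against Aqp2, Car2 was 5.17% to 6.38% in the intact samples and 6.44% to 26.2% in the KO samples, highest in KO 1. Atp6v1b1 was 0.522% to 0.752% of Aqp2 in intact and 0.576% to 2.25% in KO samples, highest in KO 2. These ratios move with Aqp2 as much as with the markers, since KO 1 and KO 2 had the lowest Aqp2, at 1281.18 and 1617.99 TPM. No test was run on them.

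**Figure D4:**
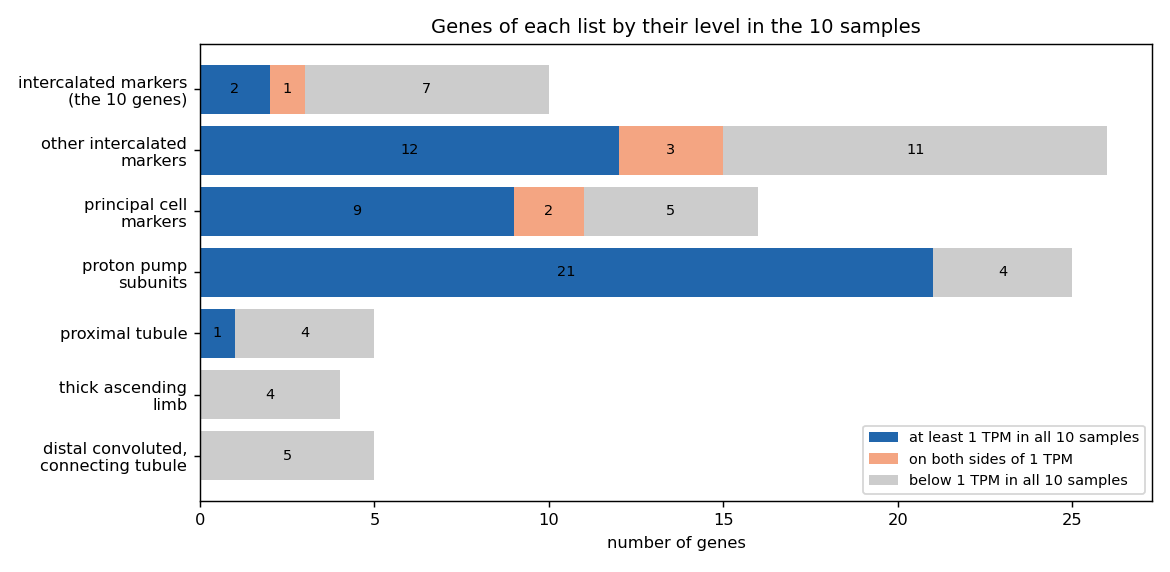
Number of genes in each list that were at 1 TPM or more in all 10 samples (blue), on both sides of 1 TPM (orange) or below 1 TPM in all 10 samples (gray). The 10 intercalated markers have 2, 1 and 7 genes in these classes, the principal cell markers 9, 2 and 5, and the proton pump subunits 21, 0 and 4.

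Genes that bear on the choice between principal and intercalated fate were mostly well expressed. Of 27 factors and Notch pathway genes, 19 were at 1 TPM or more in every sample, and none of the 23 tested was called in either test. With 0.005% and 3.6% of all genes called in these tests, a list of this length would hold few calls in any case. The highest were Elf3 (483.63 to 665.10 TPM), Pax8 (305.60 to 361.45), Ehf (227.51 to 322.47), Gata3 and Hoxb7 (219.13 to 254.83), which are epithelial and kidney transcription factors. Of the 23, 1 gene had no overlap between groups, beside 1.64% of all genes tested: Rbpj, the DNA-binding partner of Notch, was at 3.66 to 4.20 TPM in intact and 4.33 to 5.99 TPM in KO samples (log2 difference 0.24, SE 0.10, limma adjusted p = 0.683).

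Relatives of the exchangers, of carbonic anhydrase II and of Kit were examined as a list of 31 genes, of which 14 were at 1 TPM or more in every sample and 13 were below 1 TPM in every sample. None of the 22 tested was called in either test, against the same 0.005% and 3.6% of all genes. The highest were the anion exchanger Slc4a2 (111.56 to 140.69 TPM), Slc4a11 (61.79 TPM in KO 1 to 173.13 TPM in KO 2), the mitochondrial carbonic anhydrase Car5b (19.97 to 31.28), the bicarbonate cotransporter Slc4a7 (15.01 to 20.98) and the receptor Csf1r (8.88 to 25.73). Markers of other cells were low as well: 4 of 5 proximal tubule genes, 4 of 4 of the thick ascending limb, 5 of 5 of the distal convoluted and connecting tubule, 3 of 3 of fibroblasts, 3 of 3 of endothelium and 2 of 3 of leukocytes were below 1 TPM in every sample. The exceptions were Lrp2 at 6.51 to 14.91 TPM, lowest in KO 2, and Cd68 at 3.51 to 9.05 TPM, highest in KO 2. Their part in the Car2 result was not tested.

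Genes whose log2(TPM + 1) followed a marker most closely over the 10 samples were named by Pearson's r among 13046 genes, as a description. For Car2 they were Dtnb (r = 0.980), Rapgef2 (0.977) and Papss1 (0.974), which were 0.930, 0.887 and 0.896 over 8 samples without KO 1 and KO 2. For Atp6v1b1 they included Cdkn1b (0.939) and Trmt1l (0.933), which were 0.887 and 0.813 without KO 3 and KO 4. For Hmx2 the closest were 4732471J01Rik (0.854), BC025920 (0.852) and Nktr (0.827), which were 0.674, 0.797 and 0.586 over 8 samples. Car2 had r = 0.844 with Atp6v0a4, r = 0.859 with the principal cell gene Fxyd4 and r = 0.722 with Avpr2. Without KO 1 and KO 2 these were 0.737, 0.615 and -0.25, so whether Atp6v0a4 or Fxyd4 was closer rests on those clones. Between Car2 and Hmx2 r was -0.597, and -0.356 without those clones. Between Car2 and Atp6v1b1 r was -0.090, and it was 0.613 without KO 1 and KO 2 but -0.703 without KO 3 and KO 4, so its sign rests on which clones are included. The 10 samples include 2 pairs from the same clones, so they are not 10 independent lines.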

How the data were processed

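RNA-seq was performed on 10 samples of mpkCCD cells. The authors made full-length cDNA libraries (50-bp paired reads), aligned them with STAR and quantified genes with RSEM against a mouse Ensembl annotation. The deposited values are TPM per gene, with 2 decimals, and depth cannot be read from them. The authors' edgeR comparison on expected counts was not used here. All 10 columns were used (0 left out).

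TPM were transformed as log2(TPM + 1) for the 20000 genes with the highest mean (at least 0.049 TPM) and tested with limma 3.58.1 in R 4.3.3 (intensity trend), KO against intact and, by F test, among the 8 cell lines, with Benjamini-Hochberg adjustment over all genes and a threshold of 0.05. Other calculations used Python 3.11.15, pandas 2.3.3, numpy 2.4.6 and matplotlib 3.10.9. The procedure was tested on simulated data. There the test among lines recovered 0% of changes of 1 on the log2 scale, 64% of changes of 2 and 87.5% of changes of 3. A gene not called by that test may thus still differ, even by a log2 change of 1. Groups came from the labels, and the guide of each KO clone from the study's supplement, matched by clone number. Neither test compares guides.

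The members and all gene lists were chosen with earlier results of these data known. Named genes are the 10 markers, Camk2d, paralogs and leading subunits of the pump, the principal cell list, the 5 highest and every called gene of the other lists, and the 3 genes most like each marker with a mean of at least 1 TPM. For Atp6v1b1, 1 of these 3 is not reported here. Rbpj, Aqp6, Foxi2, Foxi3, Hmx3 and Fgfr2 were named after their values were seen. Promoters and positions are from RefSeq on GRCm38.p6, and transcript windows from GENCODE M21. Alternatives were pseudocounts of 0.1 and 0.5, testing all genes above 0 or only those with a mean of at least 1 TPM, median-ratio scaling, quantile normalization, no trend, averaging the samples of each intact clone, a random effect for the line (statmod 1.5.0, consensus correlation 0.603), and leaving out each sample in turn.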

Additional observations from a re-analysis of the deposited data

Results flagged for a closer look

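In groups of 5 samples, a sample was singled out when its gap to the nearest other sample was more than 0.71 of the range of its group (Dixon's 95% value). The 10 markers, the principal cell genes and a few others made 50 testable groups, and 15 were singled out. Chance singles out about 1 in 20 groups of independent samples, whereas the intact group holds 2 pairs from the same clones, and a group with a single value above 0 always gives a share of 1.0.

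Among the 10 markers the share was 1.0 in 6 groups, each with a single sample above 0: Foxi1 in the parental line, Atp6v0d2 in KO 5, Slc4a1 and Slc26a4 in the second sample of intact clone 1, and both of these again in KO 1. The highest of these values was the 0.32 TPM of Slc26a4 in KO 1. The same share was found for Elf5, a principal cell factor, at 0.11 TPM in the first sample of intact clone 2 and at 0.14 TPM in KO 1.

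KO 2 was singled out in 3 groups. Fxyd4 was at 194.21 TPM, with the next KO clone at 588.19 (share 0.726). Kcne1 was at 0.81 TPM against 0.03 (0.963), and Scnn1b at 0.39 against 0.14 (0.714).

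The parental line was singled out in the intact group for Rhcg, at 88.78 TPM against 0.69 (0.995), for Hsd11b2, at 24.51 against 18.86 (0.837), and for Kcnj1, at 0.19 against 0.07 (0.750). The second sample of intact clone 2 was singled out for Kcne1, at 0.09 TPM against 0.03 (0.750).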

How the results depend on the processing

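No paired analysis was possible because the sample numbers only name samples and the intact and KO samples are separate lines from the same parent, with no pairing between them. No marker was called between KO and intact under any alternative run. The number of genes called in that comparison was 1, and 2 with a pseudocount of 0.1, and between 1 and 2 with each sample left out in turn. Among cell lines 719 genes were called, against 3448 when all genes above 0 were tested and 452 without the intensity trend, and between 0 and 812 with each sample left out (338 without KO 2). Markers called among lines numbered 1, and 2 when all genes above 0 were tested, where Slc26a4, above 0 in only 2 samples, joined Car2, and 0 to 1 with each sample left out. Leaving out 1 sample turned the sign of small log2 differences between KO and intact that were not called: these ran from -0.13 to 0.29 for Car2, from -0.022 to 0.26 for Atp6v1b1, from -0.10 to 0.042 for Slc4a9 and from -0.042 to 0.53 for Atp6v0a4. Fxyd2, Fxyd4, Avpr2 and Atp6v0a4 lay close to the threshold among lines, with adjusted p (limma) of 0.0707, 0.0670, 0.0699 and 0.0558 without the trend. The cause of these shifts was not tested, except that leaving out an intact clone sample leaves 1 pair to estimate the spread. Each KO clone has 1 sample, so clonal variation and loss of Camk2d cannot be told apart within a clone, and depth is unknown, so a gene listed at 0 may be expressed below detection.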
